A study of Mus musculus with 2 samples.

Results

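Fos, Fosb, Jun, Junb, Jund, Egr1, Egr2, Nr4a1, Atf3 and Ier2 were followed by single-cell RNA sequencing of sorted cells of the lateral subventricular zone, where stem cells of the adult brain line the ventricles. They were taken by symbol from a table of 27998 genes, in which each of the 10 symbols had 1 row, and all 10 had UMIs in both libraries. A UMI is a molecular barcode by which copies of one captured transcript count once. The mice were male C57BL/6 animals of 22 months, with 8 mice pooled into 1 library, and of 2 months, with 4 mice pooled into 1 library. Cells were positive for GLAST, a glutamate transporter of astrocytes and radial glia-like stem cells, and negative for O4, Ter119 and CD45. Each cell carried a library number, 1 or 2, which the labels do not link to an age, so the libraries are set side by side under their numbers. Each age is a single pooled library, so there is no replicate and no test. All intervals are exact 95% intervals that cover counting error only.

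These are immediate early genes. Signals that reach the nucleus through MAP kinases, calcium or cyclic AMP switch them on within minutes, through factors already present in the cell such as SRF with its ELK partners and CREB, and their mRNAs are short-lived. Fos and Fosb pair with Jun, Junb or Jund to form AP-1, a dimeric transcription factor. Egr1 and Egr2 are zinc finger factors, Nr4a1 is an orphan nuclear receptor, Atf3 is a stress-induced relative of the AP-1 proteins, and Ier2 encodes a small nuclear protein. The same genes are known to be induced while tissue is dissociated with enzymes. The tissue of both libraries was digested with trypsin, so levels from before and from during dissociation cannot be told apart.

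Depth was 10440891 UMIs over 1849 barcodes in library 1 (median 4463 per barcode) and 13330251 UMIs over 2088 barcodes in library 2 (median 5763). Filters left 1825 and 2064 cells. Clusters were made without the 10 genes and without 5 related gene lists, and were named from marker genes in the sense of "like". Quiescent cells, which share markers of quiescent stem cells and astrocytes, formed cluster 0 (532 cells of library 1 and 298 of library 2; leading genes Cxcl14, Slc7a10 and Htra1) and cluster 4 (116 and 262; Gfap, Prss56 and S100a6). Activated cells, with genes of activated stem cells and transit amplifying progenitors, numbered 192 and 339, neuroblasts 391 and 598, and oligodendrocytes 99 and 9. Cluster 2 (289 and 150 cells) and cluster 3 (153 and 273 cells) had no name under the marker rule. Both libraries shared 4 barcode sequences.

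Promoter sequences were searched for 8 of the 10 genes. The search was set to leave out Egr1, and no sequence of Ier2 was used, so motifs of these genes were not looked for. The CRE half-site TGACG, a short motif of CREB and ATF binding sites, was searched on either strand in the 250 bases before the start. It was found in 6 of the 8 genes, all but Jun and Jund, against 19.8% of all genes in the same table. The Jund sequence searched ended at 70697738 on chromosome 8, whereas the gene span given below begins at 70698949. The lack of a match in Jund therefore does not describe the bases just before that span. The CArG box, the motif that SRF reads, was found in Egr2 (1.62% of all genes), and the TATA box TATAAA, with the half-site, in Fos (14.3% of all genes). The full CRE TGACGTCA (1.77% of all genes) and the AP-1 site TGANTCA (7.82%) were found in none of the 8. A match describes letters only, and motifs outside these 250 bases were not searched. The 120 bases before the start are printed for the 6 genes with a match, to show where the motifs lie, with CRE half-sites (as TGACG, or CGTCA on the opposite strand), the CArG box and the TATA box in capitals. They come from RefSeq, build GRCm38.p6, 5′ to 3′ on the gene's own strand: Fos chr12:85473770-85473889 (plus), Fosb chr7:19310046-19310165 (minus), Junb chr8:84978749-84978868 (minus), Egr2 chr10:67537749-67537868 (plus, 1 of 5 starts), Nr4a1 chr15:101266726-101266845 (plus) and Atf3 chr1:191183334-191183453 (minus).
Fos: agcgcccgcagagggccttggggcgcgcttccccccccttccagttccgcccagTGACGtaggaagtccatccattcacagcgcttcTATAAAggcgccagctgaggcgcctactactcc
Fosb: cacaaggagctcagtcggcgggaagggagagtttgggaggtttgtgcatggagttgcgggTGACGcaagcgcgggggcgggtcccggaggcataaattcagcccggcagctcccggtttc
Junb: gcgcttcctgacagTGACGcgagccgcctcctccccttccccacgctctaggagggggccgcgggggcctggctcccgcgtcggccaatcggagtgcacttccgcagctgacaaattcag
Egr2: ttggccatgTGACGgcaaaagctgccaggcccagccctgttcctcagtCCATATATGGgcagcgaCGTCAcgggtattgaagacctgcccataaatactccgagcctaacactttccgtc
Nr4a1: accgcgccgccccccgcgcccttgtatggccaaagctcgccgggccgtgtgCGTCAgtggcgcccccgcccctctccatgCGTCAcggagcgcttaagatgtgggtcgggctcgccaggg
Atf3: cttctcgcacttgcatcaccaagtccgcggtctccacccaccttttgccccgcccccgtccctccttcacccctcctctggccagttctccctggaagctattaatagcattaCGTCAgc

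The 10 genes lie on 8 chromosomes of the GRCm38 build and all are protein-coding. Fos spans 85473890 to 85477273 on chromosome 12, plus strand, and Fosb 19302696 to 19310051 on chromosome 7, minus strand. Jun spans 95049034 to 95052222 on chromosome 4, minus strand. Junb, at 84974484 to 84978718 on the minus strand, Jund, at 70698949 to 70700616 on the plus strand, and Ier2, at 84661331 to 84662852 on the minus strand, are all on chromosome 8. Egr1 is on chromosome 18 (34859823 to 34864984, plus), Egr2 on chromosome 10 (67535475 to 67542188, plus), Nr4a1 on chromosome 15 (101254269 to 101274795, plus) and Atf3 on chromosome 1 (191170296 to 191218039, minus). Jun overlaps the antisense gene Junos, Junb overlaps Prdx2, Jund overlaps Gm11175 and Atf3 overlaps Gm24748, each on the opposite strand. How strand was used in counting is not given in the sources used here, so reads of each such pair may not be told apart.

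Cluster 2 had the highest summed level of the 10 genes among the groups with at least 50 cells, and oligodendrocytes and cluster 0 were among the lowest. Summed over cells and scaled to a common total (CPM), the 10 genes together made up 13916 CPM in cluster 2 of library 1 and 14267 CPM in library 2. Cluster 4 followed with 11187 and 6637 CPM, cluster 3 with 7204 and 6031 CPM, and activated cells with 5912 and 4955 CPM. Neuroblasts had 2003 and 1582 CPM, cluster 0 had 1809 and 1307 CPM, and oligodendrocytes 1323 and 1148 CPM. The order was the same in both libraries. It rests on sums over very unequal cells, as the spread over cells shows. Smaller groups also differed: 17 and 32 oligodendrocyte precursors had 8749 and 5587 CPM, and 2 and 4 microglia, the brain's resident macrophages, had 18547 and 29117 CPM.

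**Figure D1:**
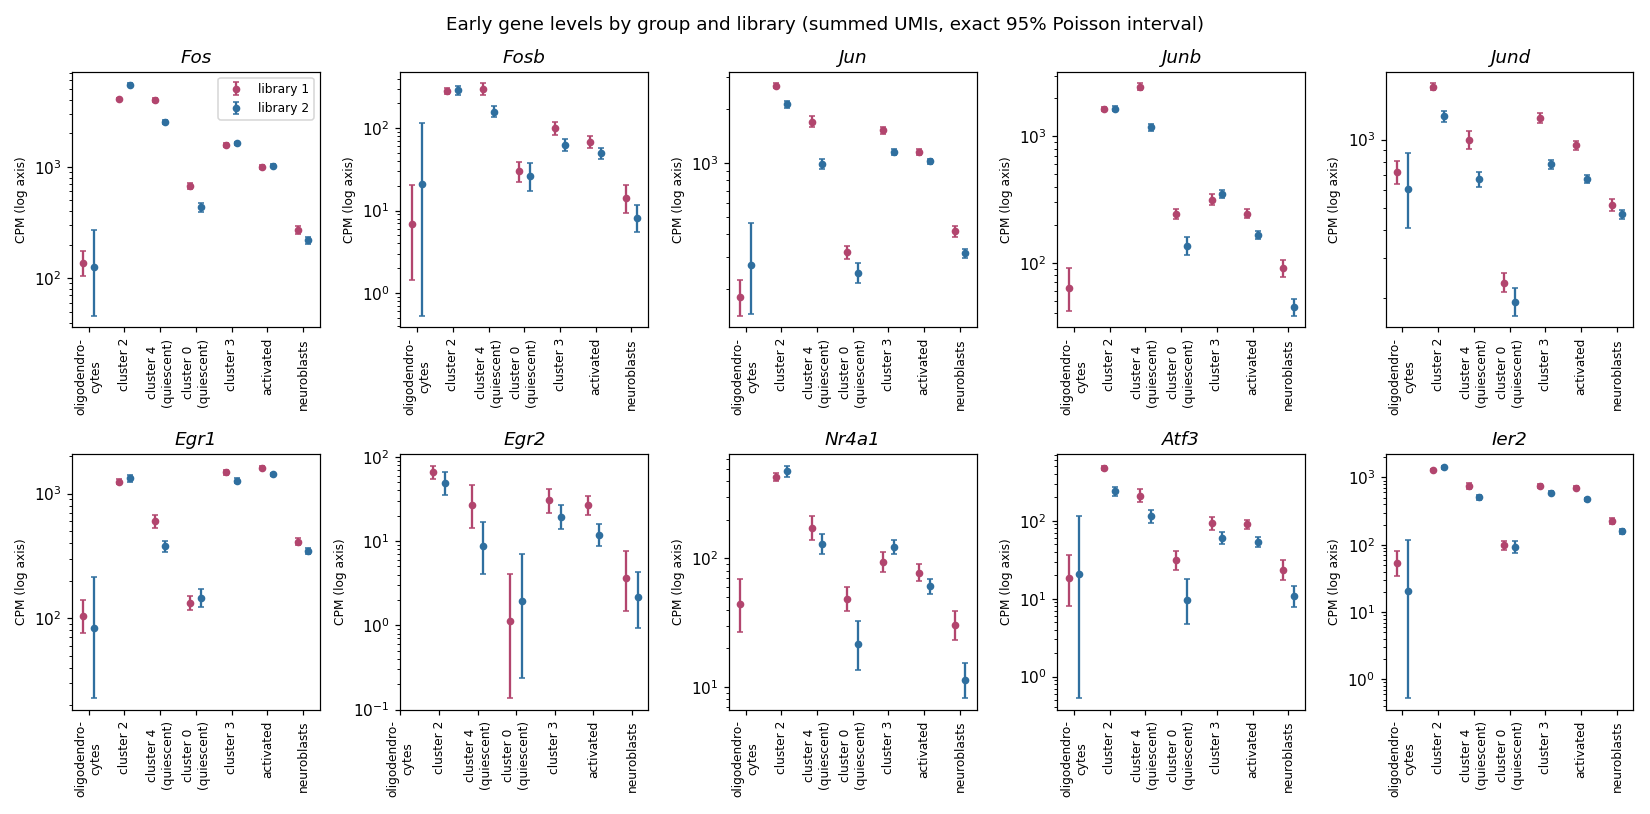
Level of each early gene in CPM (log axis) by group, with library 1 in red on the left and library 2 in blue on the right of each group; bars are exact 95% Poisson intervals of the summed UMIs, and a group with 0 UMIs has no point. Cluster 2 is the highest or next to it for most genes, Junb in library 1 peaks in cluster 4, Egr1 lies between 1251 and 1621 CPM in cluster 2, cluster 3 and activated cells, and Jund is higher in oligodendrocytes than in cluster 0.

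Of the Fos family, Fos took nearly all UMIs. Fos stood at 4052 CPM (interval 3961 to 4145) in cluster 2 of library 1 and 5423 CPM in library 2, at 3970 and 2505 CPM in cluster 4, and at 670 and 433 CPM in cluster 0. It reached 1573 and 1617 CPM in cluster 3, while activated cells had 990 and 1021 CPM, neuroblasts 272 and 219 CPM, and oligodendrocytes 137 and 125 CPM. In library 1, cluster 2 and cluster 4 did not differ beyond their intervals, whereas in library 2 cluster 2 was 2.17-fold higher than cluster 4 (2.06 to 2.27). Fosb, its paralog with a longer-lived splice form, was likewise highest in cluster 2 (280 and 287 CPM) and cluster 4 (296 and 159 CPM) among the groups with at least 50 cells, and stood at 14.2 and 8.10 CPM in neuroblasts. Fos held 92.8% of the Fos, Fosb, Fosl1 and Fosl2 UMIs in activated cells of library 1 and 96.1% in cluster 3 of library 2, and its shares in quiescent cells, neuroblasts and clusters 0, 2 and 4 lay in between. Fosl1 and Fosl2, the other family members, together stayed below 1% of these UMIs in each of those groups.

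The Jun family changed its makeup between groups. Junb, which pairs with Fos and dampens some targets of Jun, stood in cluster 4 at 2482 CPM (library 1) and 1179 CPM (library 2), while cluster 0 had 244 and 136 CPM. It had 1661 and 1664 CPM in cluster 2, 316 and 350 CPM in cluster 3, and activated cells had 245 and 166 CPM, with 90.1 and 44.6 CPM in neuroblasts. Junb held 48.0% (46.0 to 50.0%) and 41.6% of the Jun, Junb and Jund UMIs in cluster 4, 27.4% and 32.9% in cluster 2, 30.6% and 23.7% in cluster 0, 10.5% and 8.94% in activated cells, and 8.83% and 5.40% in neuroblasts. Jund, the member least tied to stimulation, ran the other way: it held 19.3% and 23.5% in cluster 4, 40.3% and 36.2% in activated cells, 50.3% and 56.6% in neuroblasts, and 74.8% (70.3 to 78.9%) in oligodendrocytes of library 1. Jun, the partner of Fos with the strongest activating domain, held between 32.8% and 54.8% in every one of the groups just named other than the oligodendrocytes, where its share was 18.6%. Its level was 2690 and 2122 CPM in cluster 2, 1695 and 989 CPM in cluster 4 and 320 and 245 CPM in cluster 0, and activated cells had 1148 and 1019 CPM. The 42 family UMIs in the 9 oligodendrocytes of library 2 are too few for more than a rough share, with 69.0% for Jund.

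**Figure D2:**
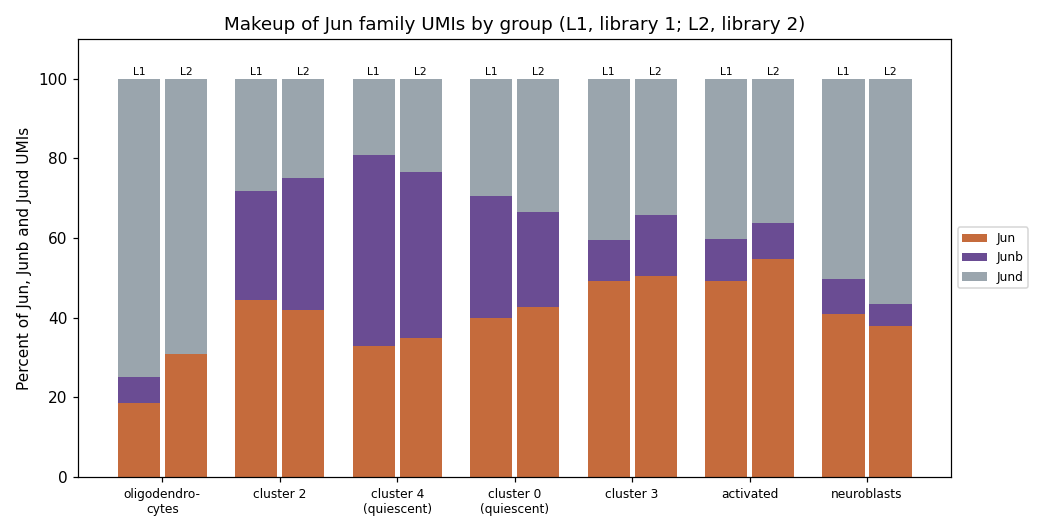
Share of Jun, Junb and Jund among their summed UMIs, in percent, by group, with library 1 left of library 2. Junb is 48.0% and 41.6% in cluster 4 and 8.83% and 5.40% in neuroblasts, while Jund is 74.8% in oligodendrocytes of library 1.

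Egr1 had another order over the groups than Fos. Egr1, a factor induced by growth factor signalling, stood at 1621 and 1428 CPM in activated cells, 1480 and 1275 CPM in cluster 3, and 1251 and 1326 CPM in cluster 2. Quiescent cells were lower, with 598 and 377 CPM in cluster 4 and 132 and 146 CPM in cluster 0, and neuroblasts had 412 and 347 CPM. In library 1 the intervals of activated cells (1568 to 1676) and of cluster 2 (1201 to 1303) did not overlap. Egr2, best known for its part in Schwann cell myelination, was sparse and, as Fos, highest in cluster 2 among the groups with at least 50 cells. It had 65.8 and 48.9 CPM there, 26.9 and 8.87 CPM in cluster 4, 26.9 and 11.9 CPM in activated cells, and 2 UMIs in cluster 0 of either library. It had 0 UMIs in oligodendrocytes, with an exact interval that reaches 8.56 CPM in library 1.

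Among the groups with at least 50 cells, Nr4a1, Atf3 and Ier2 were each highest in cluster 2. Nr4a1 had 434 and 479 CPM there, against 174 and 130 CPM in cluster 4, 48.6 and 21.4 CPM in cluster 0, and 30.4 and 11.3 CPM in neuroblasts. Atf3, a gene of the stress response, had 478 and 240 CPM in cluster 2, 211 and 114 CPM in cluster 4, and 31.1 and 9.74 CPM in cluster 0. Its interval in cluster 2 of library 1 (447 to 510) did not overlap that of library 2 (209 to 275). The few microglia had far more, with 5385 and 3478 CPM of Atf3 from 45 and 51 UMIs. Ier2 had 1297 and 1412 CPM in cluster 2, 739 and 509 CPM in cluster 4 and 97.9 and 93.5 CPM in cluster 0, while activated cells had 702 and 474 CPM.

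Between activated and quiescent cells the 10 genes differed in direction. Egr1 was 6.98-fold higher in activated than in quiescent cells of library 1 (interval 6.36 to 7.67) and 5.48-fold in library 2 (5.01 to 6.00), with 1621 against 232 CPM and 1428 against 261 CPM. Egr2 (4.04-fold and 2.22-fold), Ier2 (2.98 and 1.58), Jund (2.37 and 1.57) and Jun (1.87 and 1.66) were also higher. Junb was lower, at 245 CPM in activated cells against 724 CPM in quiescent cells of library 1 and 166 against 655 CPM in library 2, which is 2.95-fold and 3.94-fold lower. Fos was 1.39-fold and 1.43-fold lower in activated cells and Fosb 1.27-fold and 1.86-fold lower. Nr4a1 (1.03-fold and 0.80-fold) and Atf3 (1.29-fold and 0.86-fold) were lower or higher depending on the library. By a 1.5-fold line, 5 of 10 genes were higher in library 1 (35.9% of all measured genes were) and 1 lower (32.3%), and in library 2 5 were higher (32.3%) and 2 lower (32.7%). These counts are close to those of other genes. The median log2 ratio was 0.63 in library 1 and 0.22 in library 2, against 0.09 and 0.04 for all measured genes.

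The direction for Fos, Fosb and Junb depended on how the activated and quiescent cells were grouped. Both sides changed in each setting below, and the part of either side was not tested. With cluster 5, the largest activated cluster, set against cluster 0 alone, Fos was higher in the activated cells by 0.63 and 1.59 on the log2 scale, Fosb by 1.25 and 1.22, and Junb by 0.11 and 0.64. The median over the 10 genes was then 1.58 in library 1 and 2.24 in library 2. It was 1.58 and 1.31 at resolution 2, and 1.72 and 1.28 with the early genes and lists shaping the clusters. At clustering resolution 2, Junb was still lower, by log2 ratios of -0.09 and -0.30, but Fos (0.48 and 0.36) and Fosb (1.10 and 0.13) were higher. Egr1 was higher in activated cells in each of these settings. The median cell had 4980 and 3673 CPM of the 10 genes together in activated cells, against 871 and 891 CPM in quiescent cells.

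In neuroblasts all 10 genes were lower than in activated cells, in both libraries. At 1.5-fold or more this held for 10 of 10 in library 1 (21.0% of all measured genes) and for 9 of 10 in library 2 (16.9%), where Jund was 1.44-fold lower, at 467 against 673 CPM. Fos had 272 CPM in neuroblasts against 990 CPM in activated cells of library 1 and 219 against 1021 CPM in library 2. Egr1 had 412 against 1621 CPM and 347 against 1428 CPM. The median log2 ratio was -1.75 in library 1 and -2.13 in library 2, against -0.06 and -0.04 for all measured genes. Neuroblast cluster 6, which carried mitotic genes among its leading genes, had 1937 and 1609 CPM of the 10 genes together, close to the 1847 and 1496 CPM of cluster 1 and the 2376 and 1603 CPM of cluster 7. Activated cells and neuroblasts both hold many dividing cells: Mki67, a proliferation marker, was at 167 and 168 CPM in neuroblasts, against 246 and 252 CPM in activated cells.

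Oligodendrocytes of library 1 were lower than quiescent cells for 8 of the 9 genes with enough UMIs (37.9% of all measured genes were lower by 1.5-fold). Fos stood at 137 CPM in oligodendrocytes against 1378 CPM in quiescent cells, and Junb at 62.7 against 724 CPM. Jund was the exception, 1.80-fold higher in oligodendrocytes (1.58 to 2.06), with 717 against 398 CPM. The median log2 ratio was -1.91, against -0.21 for all measured genes. It was -0.84 against cluster 0 alone, -0.88 at resolution 2 and -0.97 with the early genes and lists shaping the clusters. For the sum of the 10 genes the typical cell ran the other way. Jund alone gave 717 of the 1323 CPM of that sum in oligodendrocytes, against 398 of 3821 CPM in quiescent cells. Whether the typical cell also differs without Jund was not tested. The median oligodendrocyte had 1298 CPM of the 10 genes together, against 871 CPM in the median quiescent cell, and 3.26% of thinned oligodendrocytes had no early gene UMI, against 17.5% of quiescent cells. In the quiescent class 10.3% of cells, those with at least 5000 CPM, held 77.6% of the early gene UMIs. The sort was set to exclude O4, a marker of the oligodendrocyte lineage, so these cells may not represent oligodendrocytes of the tissue.

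The 2 quiescent clusters differed in every gene that could be compared. In cluster 4, Junb was 10.2-fold higher than in cluster 0 of library 1 (9.09 to 11.4) and 8.64-fold in library 2 (7.25 to 10.4), Fosb 9.87-fold and 6.03-fold, and Fos 5.93-fold and 5.78-fold. Egr1 was 4.52-fold and 2.58-fold higher. At 1.5-fold or more, 9 of 9 genes were higher in cluster 4 in each library, where 21.6% and 26.2% of all measured genes were, and the median log2 ratio was 2.57 and 2.53 against 0.12 and 0.17 for all measured genes. Most early gene UMIs of cluster 4 lay in a minority of cells, picked by the same sum. The median cell was higher in cluster 4 as well, and the difference without the high cells was not tested. Cells with at least 5000 CPM of the 10 genes together, which is 0.5% of a cell's UMIs, made up 37.9% of cluster 4 in library 1 (44 of 116, interval 29.1 to 47.4%) and 28.2% in library 2 (74 of 262, 22.9 to 34.1%), against 4.32% (2.76 to 6.42%) and 3.69% (1.86 to 6.51%) of cluster 0. They held 93.2% and 88.6% of the early gene UMIs of cluster 4 and 51.2% and 42.8% of those of cluster 0. The median cell of cluster 4 had 1732 and 1230 CPM, the 75th percentile 17199 and 6593 CPM, and the 95th 43243 and 34375 CPM. The median cell of cluster 0 had 802 and 685 CPM.

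The size of that difference changed when the early genes could enter the clustering. With the 10 genes and related lists allowed to shape the clusters, the median log2 ratio of cluster 4 over cluster 0 was 1.52 and 1.35, and that of cluster 2 over cluster 4 was 2.74 and 2.99. Of the 118 high cells of cluster 4, 65 then joined cluster 2 and 53 stayed, and of the 130 cells of cluster 2 below the line 117 joined cluster 4. At resolution 2 the median of cluster 4 over cluster 0 stayed at 2.63 and 2.54, but the part of cluster 4 with the higher early gene level (12686 and 9372 CPM, 99 and 123 cells; leading genes Prss56, Ecel1 and S100a6) met the marker rule for fibroblasts, with 4 of 7 markers at the fold and none among its leading genes. The part that stayed quiescent had 4202 and 3669 CPM. In cluster 4 as a whole the fibroblast list summed to 14.5 and 96.6 CPM, with 2 and 7 of 7 markers detected, and its part in the early gene levels was not tested.

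The 5000 CPM line is a cut through a range and not a cell type; 6 and 12 cells of cluster 4 lay between 4000 and 6000 CPM. High cells of cluster 4 had a median of 4496 and 3793.5 UMIs, against 3844 and 3597 UMIs in the other cells of that cluster, and a median of 2.95% and 2.21% mitochondrial UMIs, against 3.62% and 3.27%. The part of depth in the split was not tested. Of the activated cells 50.0% and 36.6% passed the line, with 53 and 56 cells between 4000 and 6000 CPM, and the median cell lay near the line in library 1 (4980 CPM) and below it in library 2 (3673 CPM). Of the neuroblasts 3.84% and 1.17% passed the line, and of the oligodendrocytes of library 1 1.01% did.

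**Figure D3:**
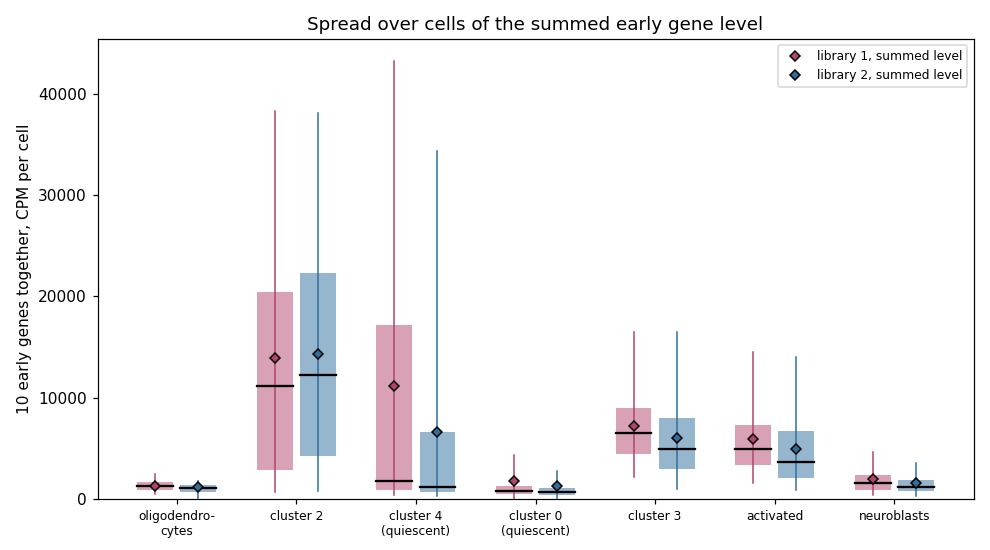
Summed level of the 10 genes per cell, in CPM, by group, with library 1 left of library 2; boxes span the 25th to 75th percentile, thin lines the 5th to 95th, black lines the median cell, and diamonds the level from summed UMIs. In cluster 4 the median cell (1732 and 1230 CPM) lies far below the summed level (11187 and 6637 CPM), while in activated cells both lie nearer to each other (4980 and 3673 against 5912 and 4955 CPM).

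Cluster 2 stood out by these genes although none of them was used to form it. Its 10 leading genes by fold over all other cells were Cxcl10, Nr4a1, Atf3, Maff, Junb, Cebpb, Nptx2, Irf8, Irf1 and Fos, 4 of them early genes, and this is a description of the cluster and not a comparison. Against cluster 4, the median log2 ratio was 0.80 and 1.11, and 7 of 10 genes were at least 1.5-fold higher in cluster 2 in library 1 (27.6% of all measured genes) and 9 of 10 in library 2 (21.3%). Nr4a1 was 2.49-fold and 3.68-fold higher, Egr1 2.09-fold and 3.52-fold, and Atf3 2.26-fold and 2.10-fold. Cells past the 5000 CPM line made up 69.6% (63.9 to 74.8%) and 72.0% (64.1 to 79.0%) of cluster 2, and the median cell had 11150 and 12228 CPM. With the clustering resolution raised to 2 the cluster fell mainly into a piece with 20202 and 21458 CPM of the 10 genes and a piece with 6324 and 9838 CPM.

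The summed quiescent and activated marker lists of cluster 2 lay between those of cluster 4 and of activated cells. The quiescent list summed to 16451 and 12656 CPM in cluster 2, against 43094 and 35565 CPM in cluster 4, while activated cells had 3512 and 2776 CPM. The activated list summed to 4258 and 4093 CPM in cluster 2, against 1703 and 1629 CPM in cluster 4, while activated cells had 11570 and 12099 CPM. Slc1a3, the GLAST gene, was at 1511 CPM in both libraries. Egfr was at 278 and 190 CPM, against 99.4 and 51.3 CPM in cluster 4. Of the microglia list, 7 and 3 of 12 markers were detected, at 7.01 and 5.69 CPM together, against 10.3 and 9.86 CPM in cluster 4. Ptprc, the CD45 gene, was at 0 in both clusters. Of the endothelial list, 3 of 9 markers were detected in each library, at 12.9 and 14.8 CPM together, against 12.4 and 26.6 CPM in cluster 4. With the stricter filter of 1000 genes and 5% mitochondrial UMIs, the cluster led by Cxcl10, Nr4a1 and Maff met the marker rule for endothelial cells, with 5 of 9 markers at the fold and none among its leading genes. The part of such RNA in the early gene levels was not tested.

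Between the libraries, the quiescent class as a whole showed nearly equal levels, whereas each of its clusters was higher in library 1. In the whole class no gene reached 1.5-fold in either direction (8.18% of all measured genes were higher in library 1 and 10.1% lower), and the median log2 ratio of library 1 over library 2 was -0.04. In cluster 4 all 10 genes were higher in library 1, 7 of them by 1.5-fold (11.2% of all measured genes), with a median of 0.72. Cluster 4 was itself made up unequally. At resolution 2 its cells fell mainly into a cluster of 99 cells of library 1 and 123 of library 2, with 12686 against 9372 CPM of the 10 genes together, and one of 18 and 136 cells, with 4202 against 3669 CPM. Both gaps are smaller than the 11187 against 6637 CPM of cluster 4 as a whole. In cluster 0, 8 of 9 were higher, 4 of them by 1.5-fold (10.9%), with a median of 0.38. Junb, for example, had 2482 against 1179 CPM in cluster 4 and 244 against 136 CPM in cluster 0, but 724 against 655 CPM in the class. Cluster 4, the one with high early gene levels, made up 17.9% of quiescent cells in library 1 (15.02 to 21.07%) and 46.8% in library 2 (42.6 to 51.0%), so the class average weighs it unequally in the libraries. These values depended on how cells were grouped: with the 10 genes and related lists allowed to shape the clusters, the median was -0.24 in cluster 0 and 0.17 in cluster 4.

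**Figure D4:**
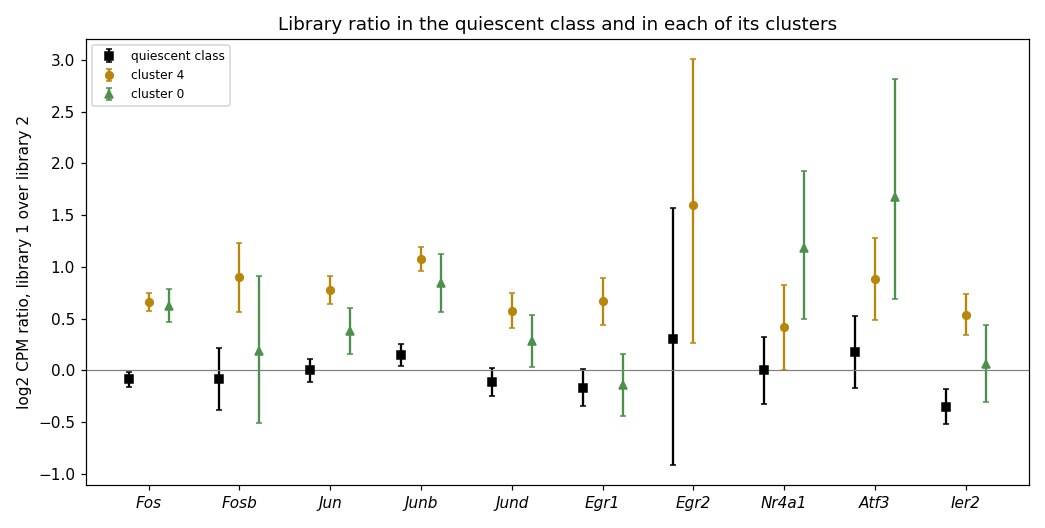
Log2 ratio of CPM, library 1 over library 2, for each gene in the quiescent class, in cluster 4 and in cluster 0, with exact 95% intervals; Egr2 in cluster 0 had too few UMIs. The class lies near 0 (median -0.04) while cluster 4 (median 0.72) and cluster 0 (median 0.38) lie mostly above it.

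In activated cells and neuroblasts most genes were again higher in library 1. The median log2 ratio was 0.48 in activated cells, with 2 of 10 genes at 1.5-fold or more (7.85% of all measured genes), and 0.52 in neuroblasts, with 4 of 9 (9.79%), against 0.04 for all measured genes in both classes. Within the activated class the 2 clusters differed, with a median of 0.17 in cluster 5 and 0.92 in cluster 8. In cluster 2, 4 genes were higher and 6 lower, with a median of -0.02. Over 9 clusters, Atf3 was higher in library 1 in all 9, with the interval above 1 in 6, and Jun in 8, with the interval above 1 in all 8 of those. Fos was higher in library 1 in 6 and lower in 3, among them cluster 2, where it stood at 4052 CPM in library 1 against 5423 CPM in library 2. The libraries differed in other RNA as well. The oligodendrocyte marker list summed to 737 CPM in activated cells of library 1 against 73.6 CPM in library 2, to 363 against 81.0 CPM in neuroblasts, to 507 against 242 CPM in cluster 4 and to 601 against 275 CPM in cluster 0, with 12 or 13 of 13 markers detected in each of these groups other than clusters 0 and 4 of library 2, with 11. Its part in the early gene differences was not tested.

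The 10 genes varied together over single cells most strongly in cluster 4. With each cell thinned to 2000 UMIs, the median Pearson r of the 45 gene pairs was 0.55 over 108 cells of library 1 and 0.50 over 249 cells of library 2. It was 0.41 and 0.38 in cluster 2 (277 and 150 cells), 0.11 and 0.13 in cluster 0 (470 and 275 cells), 0.20 in activated cells of both libraries (190 and 338 cells), and 0.05 and 0.02 in neuroblasts (361 and 582 cells). Cells of a group share a library and an RNA pool, so these values are descriptions, and sparse genes give low values. Fos and Junb were the closest pair in clusters 4 and 2, with r of 0.84 and 0.79 in cluster 4 and 0.71 and 0.67 in cluster 2. In cluster 3 of library 1 and in activated cells of library 1 the closest pair was Jun and Jund (0.54 and 0.38). This did not repeat in library 2, where it was Fos and Junb in cluster 3 (0.48) and Fos and Jun in activated cells (0.51).

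By shares of thinned cells with a UMI, cluster 4 did not stand out from cluster 2. In cluster 2, 73.1% (library 1) and 74.1% (library 2) of the cells with a Fos UMI also had a Junb UMI. Without Fos it was 15.6% of 32 cells and 6.67% of 15 cells. Of the cells of cluster 4 with a Fos UMI, 67.6% in library 1 and 46.0% in library 2 also had a Junb UMI, against 13.5% and 10.1% of those without Fos. In neuroblasts the shares for Junb were 19.8% and 8.29% with Fos, against 10.0% and 5.49% without.

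**Figure D5:**
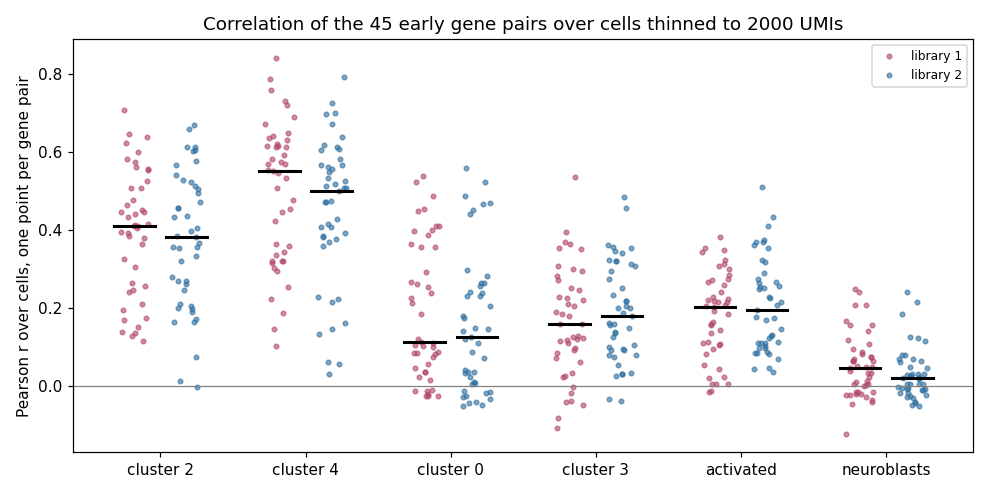
Pearson r over cells thinned to 2000 UMIs for the 45 pairs of the 10 genes, one point per pair, by group, with library 1 left of library 2; black lines are medians. The medians are 0.55 and 0.50 in cluster 4 and 0.05 and 0.02 in neuroblasts.

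Genes outside the 10 were ranked by how they followed the summed early gene count over cells, as the mean r in quiescent cells, activated cells and neuroblasts of each library. Of 3161 genes with a UMI in at least 5% of thinned cells in each of these 6 groups, Btg2, an antiproliferative early gene, was first with a mean r of 0.39, and r was 0.69 and 0.73 in quiescent cells. Dusp1, a phosphatase that turns off MAP kinases, had 0.28, Rhob, a small GTPase, 0.27, Klf6, a zinc finger factor, 0.26, and H3f3b, a gene of histone H3.3, 0.26. Ppp1r15a, which restores translation after stress, had 0.24. Zfp36l1, Ddit3, Irf2bpl, Dnajb1, Gadd45g and Pnrc1 followed, with 0.16 to 0.18. The median r of the ranked genes lay between 0.00 and 0.01 in quiescent cells, activated cells and neuroblasts.

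Related gene lists behaved unevenly. Of 39 other immediate early genes, 33 could be measured between clusters 4 and 0 in library 1 and 30 in library 2, and 29 and 23 of them were at least 1.5-fold higher in cluster 4 (21.6% and 26.2% of all measured genes), with a median log2 ratio of 1.33 and 1.34. Between activated and quiescent cells, 12 of 35 were higher by that line and 12 lower in library 1, and 8 and 15 of 34 in library 2. Over all measured genes 35.9% were higher and 32.3% lower in library 1, and 32.3% and 32.7% in library 2. At the ends of that list were Klf10, a TGF-beta induced factor, at 220 and 106 CPM in activated cells against 20.9 and 19.6 CPM in quiescent cells, and Id3, an inhibitor of bHLH factors and BMP target, at 59.3 and 32.5 CPM against 937 and 818 CPM. Plk3, a polo-like kinase, had 13.0 and 8.61 CPM in activated cells against 3.55 and 2.45 CPM, and Cyr61, a matrix protein, 23.7 and 40.0 CPM against 282 and 311 CPM. Of 15 other AP-1, Egr and Nr4a family genes, only 7 had enough UMIs, and Atf5 (2.79-fold) and Atf4 (2.45-fold, both as the geometric mean of the libraries) were the highest in activated over quiescent cells. Maff (0.93-fold) and Mafg (1.38-fold) were the lowest.

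Feedback inhibitors and heat shock genes were also measured. Of 18 feedback inhibitors, 13 were measured between activated and quiescent cells, 5 and 4 of them higher (35.9% and 32.3% of all measured genes) and 4 and 3 lower (32.3% and 32.7%). Socs3, an inhibitor of JAK and STAT signalling, had 638 and 275 CPM in cluster 4 against 66.7 and 30.2 CPM in cluster 0, and 19.5 and 20.0 CPM in activated cells. Nfkbiz was also lower in activated than in quiescent cells (4.64 and 5.83 CPM against 15.1 and 14.2 CPM), whereas Dusp10 (62.6 and 44.2 CPM against 7.55 and 16.2 CPM) was higher. Dusp5 was sparse, with 8.35 CPM in activated against 1.78 CPM in quiescent cells of library 1. In library 2 its levels were nearly equal (4.44 against 3.92 CPM). Of 15 heat shock genes, 13 could be measured between clusters 4 and 0, and 7 and 8 were at least 1.5-fold higher in cluster 4 (21.6% and 26.2% of all measured genes), with a median log2 ratio of 0.61 and 0.75. Between activated and quiescent cells Dnajb1 (3.08-fold) and Hspa4 (2.73-fold) were the highest of that list, and Hspa1a (0.09-fold) and Dnajb4 (0.45-fold) the lowest. The 26 upstream regulators, among them SRF cofactors, CREB factors and MAP kinases, had a median log2 ratio of cluster 4 over cluster 0 of 0.08 and 0.05 over 19 measured genes in each library and 2 and 3 of them at least 1.5-fold higher in cluster 4 (21.6% and 26.2% of all measured genes). In activated over quiescent cells Atf1 (3.46-fold) and Mapk8 (3.10-fold) were the highest of them and Mapk10 (0.24-fold) and Crtc3 (0.39-fold) the lowest.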

How the data were processed

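Cells of 2 pooled libraries were profiled with droplet 3′ RNA sequencing. The deposited matrix holds UMI counts, whole numbers for each gene in each barcode, and its values show no scaling by the authors. Cell Ranger 2.0.0 and the builds GRCm38.p3 and mm10 are named per the submitters' processing notes, and the role of each is not given in the sources used here. The library is the number at the end of a barcode.

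Kept barcodes had 500 or more genes and no more than 10% mitochondrial UMIs, which removed 9 of library 1 and 13 of library 2. Scrublet (in scanpy 1.11.5, expected rate 1.5%) marked 15 (0.811%) and 11 (0.527%) doublets, which were removed. Counts were scaled to 10000 per cell and logged. From genes in at least 5 cells, the 2000 most variable outside the 121 list genes entered 30 principal components, a graph of 15 neighbours and Leiden clustering at resolution 1 (leidenalg 0.10.2, igraph 0.11.9, seed 1), which gave 15 clusters. A cluster was named for the class whose markers had the largest average log2 fold (10 CPM added), given at least 3 markers at 1.5-fold and no other class with more markers among its 10 leading genes. This naming rule was set after clusters had been seen. The early genes and lists were chosen with earlier results of these data known.

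Levels are UMIs summed over cells, in CPM, with Poisson intervals. Ratios need 20 UMIs over both sides and have conditional binomial intervals, and shares have Clopper-Pearson intervals. Intervals were checked on simulated counts. A 3′ UMI count is not scaled to length, and levels are compared between groups. Shares among genes, as in the Fos and Jun families or of Jund in the sum, describe counted UMIs only. A gene counts as measured with 20 UMIs, and 1.5-fold is the line for a call. For correlations each cell was thinned to 2000 UMIs. Named genes are all 10 members, the 2 highest and 2 lowest of each list in activated over quiescent cells, and the 12 genes most like the members' sum. No age was assigned to a library, and no test was made. Gene positions come from the GENCODE annotation of GRCm38. Python 3.11.15, scipy 1.17.1, numpy 2.4.6, pandas 2.3.3, anndata 0.12.19 and matplotlib 3.10.9 were used.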

Additional observations from a re-analysis of the deposited data

Results flagged for a closer look

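Some genes had opposite library or cluster differences in 2 groups, each with intervals that leave out equal levels. None of these differences between groups was tested, since each library is 1 sample. Junb was lower in cluster 2 than in cluster 4 of library 1 (log2 ratio -0.58) but higher in library 2 (0.50). Fos was higher in library 1 than in library 2 in cluster 0 (log2 ratio 0.63) and in cluster 4 (0.66), and lower in cluster 2 (-0.42). Ier2 was higher in library 1 in cluster 4 (0.54) and in cluster 3 (0.33) and lower in cluster 2 (-0.12). Nr4a1 was higher in library 1 in cluster 0 (1.18) and in cluster 4 (0.42) and lower in cluster 3 (-0.37). In cluster 3 the endothelial marker list stood at 7.20 CPM in library 1 against 148 CPM in library 2, and the part of such cells in the Nr4a1 value was not tested.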

How the results depend on the processing

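No paired analysis was possible because each age has 1 pooled library and no library is tied to an age. Of 1444 values of single genes under 8 alternatives, 1051 kept their size within counting error, 384 moved and 9 were counted as reversed. The count of 9 leaves out some changes of sign. Fos in both libraries and Fosb in library 1 went from lower to higher in activated over quiescent cells. This was so with the largest cluster of each class alone and at resolution 2. All values here are log2 ratios, the cause of each change was not tested, and depth limits Egr2 most. With the early genes and lists among the variable genes, the median was 1.52 and 1.35 for cluster 4 over cluster 0 and 2.74 and 2.99 for cluster 2 over cluster 4 (library 1, then library 2), 1.28 for activated over quiescent cells of library 2, and, for library 1 over library 2, -0.24 in cluster 0 and 0.17 in cluster 4. Single genes then also changed sign: Junb was 0.24 in activated over quiescent cells of library 1, Nr4a1 0.31 in oligodendrocytes over quiescent cells, and Fos -0.34 and Junb -0.26 for library 1 over library 2 in cluster 0. With the largest cluster of each class alone, the median was 0.38 for library 1 over library 2 in quiescent cells, 0.17 in activated cells, 2.24 for activated over quiescent and -2.74 for neuroblasts over activated cells of library 2. Junb was then 0.11 and 0.64 and Fosb 1.22 (library 2) in activated over quiescent cells. For library 1 over library 2 in quiescent cells, the median was -0.20 at resolution 2, -0.17 with the mean of each cell's own CPM and -0.23 with cells thinned to 2000 UMIs. At resolution 2 activated over quiescent cells of library 2 had a median of 1.31 and Fosb 0.13. At that resolution the part of cluster 4 with the higher early gene level left the quiescent class under the fibroblast marker rule. With doublets kept, Egr1 was 0.21 in oligodendrocytes over quiescent cells of library 1.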
